A study of Mus musculus with 2 samples.

Results

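Glycolysis, the pentose phosphate pathway and the tricarboxylic acid (TCA) cycle are the routes by which a cell breaks down glucose, and 37 genes that encode their enzymes are described here, of 32285 genes counted. They were chosen by name as a pathway list, with earlier results of these data known. The list holds 12 genes of glycolysis, the 2 lactate dehydrogenase subunits, 3 genes of the oxidative and 4 of the non-oxidative pentose phosphate branch, 4 of the pyruvate dehydrogenase complex and 12 of the TCA cycle. All 37 were found once in the matrix and had a UMI (a unique molecular identifier, which marks 1 captured RNA molecule) in all 6 conditions. Wild-type mouse CD8+ T cells, taken from the spleen, spent 30 h without stimulation (rested) or on plates coated with a peptide held by the mouse MHC molecule H-2Db. The M9C peptide was coated at 0.2, 2 or 20 pmol and the L6F peptide at 20 or 80 pmol. Each condition was 1 culture, marked with its own hashtag antibody, and all were sorted for live cells and loaded in 1 lane of a 10x Genomics droplet run. The sources used here give no strain, age or T cell receptor, nor the number of mice.

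Glycolysis converts glucose to pyruvate in the cytosol, and lactate dehydrogenase turns pyruvate into lactate and regenerates the NAD+ that glycolysis needs. The pentose phosphate pathway branches off at glucose 6-phosphate and gives NADPH in its oxidative branch and ribose phosphate for nucleotides in its non-oxidative one. Pyruvate dehydrogenase feeds pyruvate into the mitochondrial TCA cycle. Resting T cells are known for relying mainly on mitochondrial oxidation, and activated CD8+ T cells for a raised glycolysis with lactate export while they grow and divide.

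With 1 culture per condition there was no replicate, so no test between conditions, p-value or standard error is given. Levels are in CPM, the UMIs of a gene in a condition's summed cells scaled to a total of 1000000, and ratios carry an exact 95% interval in brackets that covers counting error only. A gene counted as measured in a comparison if it reached 10 CPM on at least 1 side, and was called higher or lower where its ratio passed the stated fold and its interval left out equality. UMIs were not scaled by gene length, so levels are compared between conditions and not between genes. The 11477 cells used numbered 1583 rested cells and 1595 to 2485 in each stimulated culture, with 1495231 UMIs in rested cells and 11381042 to 16019078 in the stimulated ones. A rested cell held a median of 846 UMIs and a stimulated cell 6041 to 7093 by condition. Cd3e, Cd3d, Cd8a and Cd8b1 together stood at 1562 to 1733 CPM in the stimulated cultures and 2767 CPM in rested cells, and Cd4 was at 0 in 4 of the 6 conditions. Markers of other cell types made up more of the rested sum: gamma-delta T cell genes stood at 54.6 to 100.7 CPM in the stimulated cultures and 394.6 CPM in rested cells, macrophage genes at 2.67 to 26.8 and 93.6 CPM, and erythroid genes at 2.47 to 41.0 and 99.0 CPM. B cell genes stood at 5.03 to 8.56 CPM in the stimulated cultures and 23.4 CPM in rested cells, and basophil or mast cell genes at 0.218 to 2.37 and 7.36 CPM. Of the 5 macrophage genes, C1qa was at 0 in all 6 conditions and Adgre1 in all but 20 pmol L6F. Without every cell that held 3 or more UMIs of another cell type's markers, the members at least 2-fold higher than in rested cells numbered 13, 14 and 13 at 0.2, 2 and 20 pmol M9C and 12 at either L6F dose, against 14, 13, 13, 12 and 12 with those cells, and 0 were lower in any. The share of all genes called without those cells is not given here.

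The isoform pairs in which 1 gene stood higher in stimulated cells and its partner did not are a contrast within the list, and the promoters of 2 such pairs are shown for that reason, since Hk2 and Ldha are textbook targets of the transcription factors Myc and Hif1a. Each window runs from 250 bases before to 50 bases from the transcription start in RefSeq (GRCm38.p6), 5′ to 3′ along the gene. The Hk2 window is at chr6:82774405-82774704, minus strand. The Hk1 windows are at chr10:62379859-62380158, minus strand, and chr10:62340372-62340671, minus strand. The Ldha windows are at chr7:46845554-46845853, plus strand, and chr7:46846832-46847131, plus strand, and the Ldhb window is at chr6:142507908-142508207, minus strand. Capitals mark matches on either strand to CACGTG (the E-box core), to ACGTG outside CACGTG, or to GCGTG (the cores of the hypoxia response element).
Hk2: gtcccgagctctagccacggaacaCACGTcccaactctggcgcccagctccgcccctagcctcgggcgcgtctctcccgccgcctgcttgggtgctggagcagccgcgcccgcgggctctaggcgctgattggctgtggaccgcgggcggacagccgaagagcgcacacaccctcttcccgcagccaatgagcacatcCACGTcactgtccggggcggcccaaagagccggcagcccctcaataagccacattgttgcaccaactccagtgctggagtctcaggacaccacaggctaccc
Hk1, first window: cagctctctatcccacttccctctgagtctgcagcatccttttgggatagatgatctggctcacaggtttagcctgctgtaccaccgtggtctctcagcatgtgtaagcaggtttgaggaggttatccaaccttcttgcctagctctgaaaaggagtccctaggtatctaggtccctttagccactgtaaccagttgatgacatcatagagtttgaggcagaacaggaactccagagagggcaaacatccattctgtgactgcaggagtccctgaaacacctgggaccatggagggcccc
Hk1, second window: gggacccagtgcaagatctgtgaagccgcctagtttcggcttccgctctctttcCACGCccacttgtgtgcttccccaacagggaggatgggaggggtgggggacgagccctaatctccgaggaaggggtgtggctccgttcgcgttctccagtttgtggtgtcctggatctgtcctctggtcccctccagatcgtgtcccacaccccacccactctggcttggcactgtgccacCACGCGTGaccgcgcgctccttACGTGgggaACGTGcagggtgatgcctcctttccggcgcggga
Ldha, first window: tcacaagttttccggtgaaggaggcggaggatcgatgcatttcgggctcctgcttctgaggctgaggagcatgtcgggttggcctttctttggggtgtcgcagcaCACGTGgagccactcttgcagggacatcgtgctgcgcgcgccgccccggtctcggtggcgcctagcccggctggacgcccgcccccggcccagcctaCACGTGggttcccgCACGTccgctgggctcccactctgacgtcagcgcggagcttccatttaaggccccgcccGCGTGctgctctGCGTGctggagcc
Ldha, second window: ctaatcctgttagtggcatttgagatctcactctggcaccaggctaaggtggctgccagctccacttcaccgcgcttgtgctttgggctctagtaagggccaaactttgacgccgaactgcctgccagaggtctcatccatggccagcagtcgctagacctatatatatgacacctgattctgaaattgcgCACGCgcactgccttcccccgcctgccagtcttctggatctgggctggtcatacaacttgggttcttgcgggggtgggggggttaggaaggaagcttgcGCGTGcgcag
Ldhb: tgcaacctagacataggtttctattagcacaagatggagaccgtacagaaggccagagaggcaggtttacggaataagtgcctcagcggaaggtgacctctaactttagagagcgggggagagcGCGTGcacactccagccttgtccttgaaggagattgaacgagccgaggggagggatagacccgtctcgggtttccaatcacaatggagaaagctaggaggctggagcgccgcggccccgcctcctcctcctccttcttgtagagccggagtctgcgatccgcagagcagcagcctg
The Hk2 window held 2 hypoxia element cores and no CACGTG. The first Hk1 window held no match and the second held 5 hypoxia element cores. The first Ldha window held 2 CACGTG and 3 hypoxia element cores, the second held 2 hypoxia element cores, and the Ldhb window held 1. Of the 36 members matched in the RefSeq promoter table (Idh3a was not matched), 27 (75.0%) held a hypoxia element core, against 67.1% of 6379 genes that reached 10 CPM in a condition and 43.4% of all 27025 genes in the table. The median G and C content was 60.5% in the members' windows, 61.3% in those of genes at 10 CPM and 52.8% in all. CACGTG stood in the windows of 3 members (8.33%), which are Ldha, Pfkm and Ogdh, against 12.6% of genes at 10 CPM and 8.09% of all. Among the members called at least 2-fold higher at 20 pmol M9C, 10 of the 12 with a window held a hypoxia element core (83.3%), against 17 of the other 24 (70.8%). A match is a description of the letters and not of a bound site.

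Against rested cells, 8 of the 11 measured glycolysis genes and Ldha of the 2 lactate dehydrogenase genes were called at least 2-fold higher in all 5 stimulated cultures. Hk1, Gpi1, Eno1 and Ldhb were called in none. At 20 pmol M9C, 13 of the 36 measured members were at least 2-fold higher in CPM and 0 were at least 2-fold lower, where 18.0% of all 7842 measured genes were called higher and 16.8% lower. The counts of higher members were 14 at 0.2 pmol M9C (background 17.9%), 13 at 2 pmol M9C (17.8%), 12 at 20 pmol L6F (15.7%) and 12 at 80 pmol L6F (15.0%). No member was called lower in any of these 4 comparisons, against backgrounds of 16.8%, 17.0%, 14.6% and 13.7%. The median log2 ratio of the members was 0.73, 0.73 and 0.78 at 0.2, 2 and 20 pmol M9C and 0.66 and 0.69 at 20 and 80 pmol L6F, against 0.06 to 0.09 over all measured genes. That gap depended on the minimum level: with 50 CPM in place of 10 CPM, the medians were 0.64 to 0.75 for the members and 0.32 to 0.37 for all measured genes. The 5 comparisons share the 1 rested culture. Hk2, Pfkl, Pfkp, Tpi1, Gapdh, Pgk1, Pgam1, Pkm, Ldha, Pgd, Dlat and Fh1 were called in all 5, Idh3a at the 3 M9C doses, and Rpia at 0.2 pmol M9C. Pfkm, the muscle-type phosphofructokinase, stood below 10 CPM in every condition and was not measured.

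**Figure D1:**
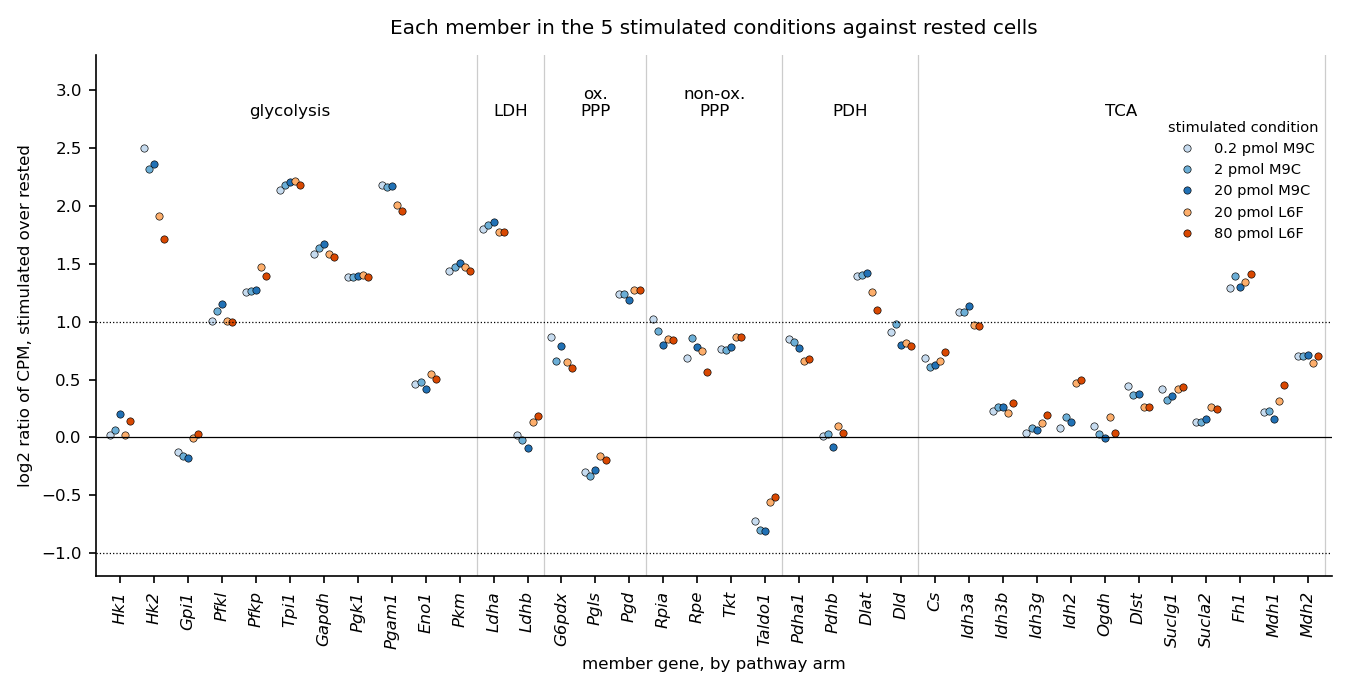
The log2 ratio of CPM in each of the 5 stimulated cultures over rested cells is plotted for the 36 measured members, grouped by pathway arm. Dotted lines mark 2-fold. Hk2, Tpi1 and Pgam1 stand above 2 on the log2 scale at all 3 M9C doses, and Taldo1 lies lowest at -0.81 at 20 pmol M9C.

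Summed over its 12 genes, glycolysis stood at 26.0 UMIs per 10000 in rested cells, 68.4, 69.6 and 70.7 at 0.2, 2 and 20 pmol M9C, and 68.5 and 67.2 at 20 and 80 pmol L6F. The ratio of 20 pmol M9C to rested cells was 2.72 (2.64 to 2.81). The share of member UMIs that came from glycolysis genes was 57.5 to 59.0% in the stimulated cultures and 46.4% in rested cells.

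**Figure D2:**
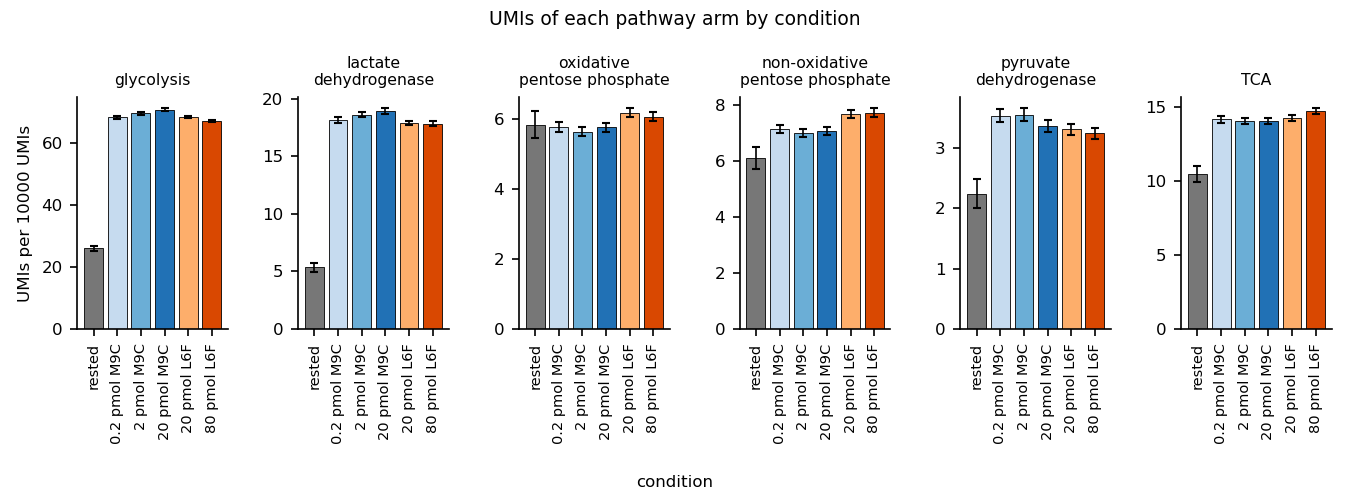
UMIs of each pathway arm per 10000 UMIs of a condition are drawn as bars, with exact 95% counting intervals, each arm on its own axis from 0. Glycolysis and lactate dehydrogenase stand far above rested cells in all stimulated cultures, and the oxidative pentose phosphate arm, at 5.65 to 6.19 in stimulated cultures against 5.85 in rested cells, does not.

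Hexokinases phosphorylate glucose in the first step of glycolysis, and Hk1 and Hk2 encode a broadly expressed and an inducible form. Hk2 (chromosome 6, 82725025 to 82774454, minus strand) stood at 10.0 CPM in rested cells, 56.8, 50.1 and 51.5 CPM at 0.2, 2 and 20 pmol M9C, and 37.8 and 32.9 CPM at 20 and 80 pmol L6F. Its log2 ratio at 20 pmol M9C over rested cells was 2.36 (1.63 to 3.20), resting on 15 rested UMIs. Hk2 was lowest in rested cells, and each of the 3 M9C cultures lay above both L6F cultures. Hk1 (chromosome 10, 62268855 to 62379908, minus strand) stood at 67.5 CPM in rested cells, 68.4, 70.7 and 77.8 CPM at 0.2, 2 and 20 pmol M9C, and 68.6 and 74.5 CPM at 20 and 80 pmol L6F. The log2 ratio of Hk1 was 0.20 (-0.09 to 0.51) at 20 pmol M9C, so its interval held equality. Hk2 made up 12.9% in rested cells, 45.3%, 41.5% and 39.8% at 0.2, 2 and 20 pmol M9C, and 35.5% and 30.6% at 20 and 80 pmol L6F of the Hk1 and Hk2 UMIs. The exact interval of that share was 7.42 to 20.4% in rested cells, and it did not overlap those of the stimulated cultures. In UMIs per cell, Hk1 was higher too, at 0.442 to 0.535 in stimulated cells and 0.0638 in rested cells.

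**Figure D3:**
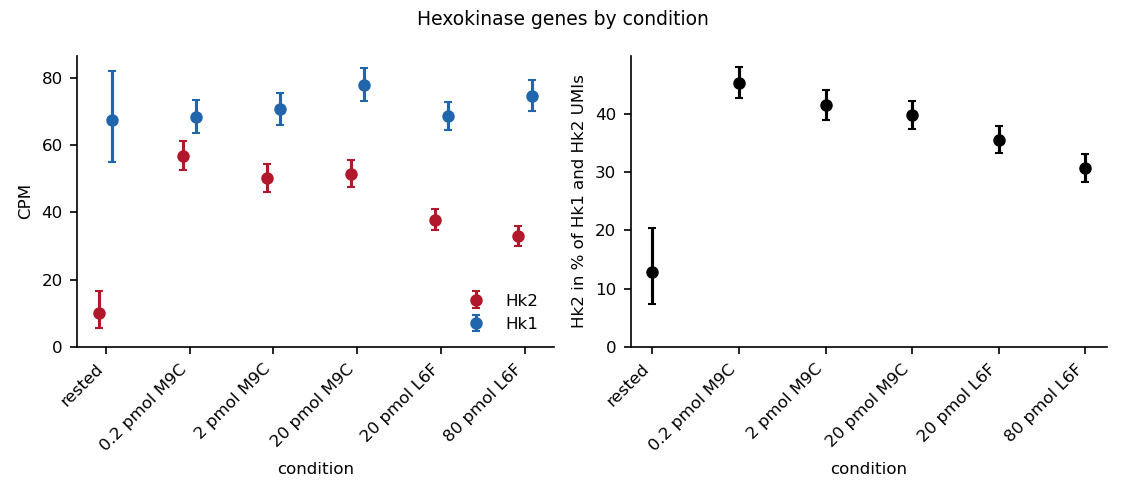
The left plot gives CPM of Hk2 and Hk1 in each condition with exact 95% counting intervals, and the right plot gives Hk2 in percent of both genes' UMIs. Hk2 lies at 32.9 to 56.8 CPM in the stimulated cultures against 10.0 CPM in rested cells, while Hk1 lies between 67.5 and 77.8 CPM throughout.

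Gpi1, glucose 6-phosphate isomerase, carries the next step and stood at 346 CPM in rested cells, 317, 310.1 and 307 CPM at 0.2, 2 and 20 pmol M9C, and 346 and 354 CPM at 20 and 80 pmol L6F. Its ratio to rested cells at 20 pmol M9C was -0.18 (-0.31 to -0.04) on the log2 scale, the only glycolysis member with an interval below equality there. Phosphofructokinase commits sugar to glycolysis. Its liver-type gene Pfkl stood at 31.4 CPM in rested cells, 63.3, 66.8 and 69.8 CPM at 0.2, 2 and 20 pmol M9C, and 62.9 and 62.9 CPM at 20 and 80 pmol L6F, with a log2 ratio of 1.15 (0.73 to 1.61) at 20 pmol M9C over rested cells. The platelet-type gene Pfkp stood at 87.6 CPM in rested cells, 209, 210.0 and 212 CPM at 0.2, 2 and 20 pmol M9C, and 243 and 230.1 CPM at 20 and 80 pmol L6F, with a log2 ratio of 1.28 (1.02 to 1.54). Pfkm stood at 2.68 CPM in rested cells, 1.93, 2.08 and 2.86 CPM at 0.2, 2 and 20 pmol M9C, and 3.56 and 3.99 CPM at 20 and 80 pmol L6F, with 4 UMIs in rested cells. Unlike the hexokinases, the phosphofructokinase genes kept similar proportions: Pfkp made up 74.5 to 78.5% of the 3 genes' UMIs in the stimulated cultures and 72.0% in rested cells.

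The genes for the lower steps, from triose phosphate to pyruvate, made up most of the glycolysis sum. Tpi1, triose phosphate isomerase, stood at 108 CPM in rested cells, 474, 489 and 496 CPM at 0.2, 2 and 20 pmol M9C, and 500.3 and 489 CPM at 20 and 80 pmol L6F, and its log2 ratio at 20 pmol M9C over rested cells was 2.20 (1.98 to 2.44). Gapdh, which makes NADH in the step that lactate dehydrogenase later balances, stood at 851 CPM in rested cells, 2547, 2639 and 2705 CPM at 0.2, 2 and 20 pmol M9C, and 2544 and 2502 CPM at 20 and 80 pmol L6F, with a log2 ratio of 1.67 (1.59 to 1.75). Pgam1, phosphoglycerate mutase, stood at 212 CPM in rested cells, 959, 949 and 953 CPM at 0.2, 2 and 20 pmol M9C, and 849.8 and 823 CPM at 20 and 80 pmol L6F, with a log2 ratio of 2.17 (2.01 to 2.33). All 3 stood more than 2-fold above rested cells in every stimulated culture. Pkm, pyruvate kinase, stood at 489.6 CPM in rested cells, 1327, 1359 and 1387 CPM at 0.2, 2 and 20 pmol M9C, and 1359 and 1322 CPM at 20 and 80 pmol L6F, with a log2 ratio of 1.50 (1.40 to 1.61). Pgk1, phosphoglycerate kinase, stood at 583 to 590.0 CPM in the stimulated cultures against 223 CPM in rested cells, with a log2 ratio of 1.40 (1.24 to 1.56) at 20 pmol M9C. Gapdh is widely used as a level reference, and here its log2 ratio at 20 pmol M9C lay between those of Pgk1 and Tpi1. Several of these genes, Gapdh, Ldha and Pgam1 among them, have near-identical processed copies in the mouse genome, so their levels are uncertain to the extent that reads were lost to or gained from copies.

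Enolase stood apart from its neighbours in the chain. Eno1, the broadly expressed enolase, stood at 167 CPM in rested cells, 230.5, 233 and 223 CPM at 0.2, 2 and 20 pmol M9C, and 244 and 237 CPM at 20 and 80 pmol L6F, and its log2 ratio at 20 pmol M9C was 0.42 (0.23 to 0.61), with an interval above equality but under 2-fold. Eno1b, a near-identical copy that is no member, held 2.20 to 2.47% of the UMIs of both in the stimulated cultures and 2.34% in rested cells, so reads lost between the copies make Eno1 uncertain. Eno3, the muscle-type enolase and no member, stood at 13.4 CPM in rested cells, 71.7, 62.4 and 74.5 CPM at 0.2, 2 and 20 pmol M9C, and 87.7 and 86.1 CPM at 20 and 80 pmol L6F, with a log2 ratio of 2.48 (1.84 to 3.20).

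Lactate dehydrogenase is built from the A subunit of Ldha and the B subunit of Ldhb. Summed, they stood at 5.34 UMIs per 10000 in rested cells, 18.2, 18.7 and 18.9 at 0.2, 2 and 20 pmol M9C, and 17.9 and 17.9 at 20 and 80 pmol L6F, and the ratio of 20 pmol M9C to rested cells was 3.55 (3.31 to 3.81). Ldha (chromosome 7, 46841475 to 46855627, plus strand) stood at 518 CPM in rested cells, 1804, 1849.9 and 1879.8 CPM at 0.2, 2 and 20 pmol M9C, and 1775 and 1768 CPM at 20 and 80 pmol L6F, with a log2 ratio of 1.86 (1.76 to 1.97). Ldhb (chromosome 6, 142490249 to 142507957, minus strand) stood at 16.1 CPM in rested cells, 16.3, 15.8 and 15.1 CPM at 0.2, 2 and 20 pmol M9C, and 17.6 and 18.2 CPM at 20 and 80 pmol L6F, with a log2 ratio of -0.09 (-0.70 to 0.59). Ldhb thus lay at like levels in all 6 conditions while Ldha lay over 3 times higher in each stimulated culture. Ldhb made up 3.01% in rested cells, 0.893%, 0.845% and 0.796% at 0.2, 2 and 20 pmol M9C, and 0.982% and 1.02% at 20 and 80 pmol L6F of the UMIs of both. The interval of that share in rested cells was 1.94 to 4.44%, above those of all stimulated cultures.

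The oxidative pentose phosphate branch showed members on both sides of the rested level. Its sum stood at 5.85 UMIs per 10000 in rested cells, 5.79, 5.65 and 5.77 at 0.2, 2 and 20 pmol M9C, and 6.19 and 6.07 at 20 and 80 pmol L6F, and the ratio of 20 pmol M9C to rested cells was 0.987 (0.920 to 1.06). G6pdx, glucose 6-phosphate dehydrogenase and the entry to the branch, stood at 20.1 CPM in rested cells, 36.6, 31.8 and 34.6 CPM at 0.2, 2 and 20 pmol M9C, and 31.6 and 30.4 CPM at 20 and 80 pmol L6F, with a log2 ratio of 0.79 (0.25 to 1.37) at 20 pmol M9C. Pgd, which makes the second NADPH, stood at 54.2 CPM in rested cells, 127, 128 and 124 CPM at 0.2, 2 and 20 pmol M9C, and 131 and 131 CPM at 20 and 80 pmol L6F, with a log2 ratio of 1.19 (0.87 to 1.53). Pgls, the lactonase between them, stood at 511 CPM in rested cells, 415, 406 and 419 CPM at 0.2, 2 and 20 pmol M9C, and 456 and 446 CPM at 20 and 80 pmol L6F, with a log2 ratio of -0.29 (-0.39 to -0.17). The genes of the NADPH-forming enzymes thus stood above the rested level in every stimulated culture and Pgls below it, and Pgls held most of the UMIs of the sum.

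The non-oxidative branch was split in the same way. Its sum stood at 6.09 UMIs per 10000 in rested cells, 7.15, 7.01 and 7.06 at 0.2, 2 and 20 pmol M9C, and 7.68 and 7.73 at 20 and 80 pmol L6F, with a ratio of 1.16 (1.08 to 1.24) at 20 pmol M9C. Tkt, transketolase, stood at 284 CPM in rested cells, 481, 477 and 487 CPM at 0.2, 2 and 20 pmol M9C, and 516 and 517 CPM at 20 and 80 pmol L6F, with a log2 ratio of 0.78 (0.64 to 0.93). Taldo1, transaldolase and the partner of Tkt in shuttling carbon back to glycolysis, stood at 297 CPM in rested cells, 180.2, 170.1 and 169 CPM at 0.2, 2 and 20 pmol M9C, and 201 and 208 CPM at 20 and 80 pmol L6F, with a log2 ratio of -0.81 (-0.96 to -0.66). Taldo1 was the lowest of the 36 measured members relative to rested cells in all 5 comparisons, short of 2-fold. With Seurat's HTODemux, another caller of a cell's condition, and at least 500 genes per cell it was called lower, at -1.08 at 2 and at 20 pmol M9C. In cells of 1000 to 3000 UMIs its ratio lay nearer equality. It was -0.38 (-0.87 to 0.08) at 2 pmol M9C, an interval that held equality, and -0.53 (-1.03 to -0.06) at 20 pmol M9C. Rpia, ribose 5-phosphate isomerase, stood at 18.1 CPM in rested cells, 36.6, 34.2 and 31.3 CPM at 0.2, 2 and 20 pmol M9C, and 32.6 and 32.4 CPM at 20 and 80 pmol L6F, with a log2 ratio of 0.80 (0.23 to 1.41). Rpe, the epimerase, stood at 15.8 to 19.3 CPM in the stimulated cultures against 10.7 CPM in rested cells, with 16 rested UMIs.

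Pyruvate dehydrogenase is a complex of E1 (Pdha1 and Pdhb), E2 (Dlat) and E3 (Dld). The 4 genes summed to 2.24 UMIs per 10000 in rested cells, 3.55, 3.56 and 3.38 at 0.2, 2 and 20 pmol M9C, and 3.32 and 3.25 at 20 and 80 pmol L6F, with a ratio of 1.51 (1.35 to 1.69) at 20 pmol M9C over rested cells. Dlat stood at 17.4 CPM in rested cells, 45.6, 45.9 and 46.4 CPM at 0.2, 2 and 20 pmol M9C, and 41.6 and 37.3 CPM at 20 and 80 pmol L6F, with a log2 ratio of 1.42 (0.85 to 2.04). Pdha1 stood at 91.6 CPM in rested cells, 165, 162 and 157 CPM at 0.2, 2 and 20 pmol M9C, and 145 and 147 CPM at 20 and 80 pmol L6F, with a log2 ratio of 0.78 (0.53 to 1.04). The E1 subunits differed, since Pdhb stood at 82.9 CPM in rested cells, 83.7, 84.7 and 78.4 CPM at 0.2, 2 and 20 pmol M9C, and 88.6 and 85.3 CPM at 20 and 80 pmol L6F, with a log2 ratio of -0.08 (-0.35 to 0.20). Dld, which also serves the oxoglutarate dehydrogenase complex, stood at 32.1 CPM in rested cells, 60.3, 63.2 and 55.9 CPM at 0.2, 2 and 20 pmol M9C, and 56.5 and 55.5 CPM at 20 and 80 pmol L6F, with a linear ratio of 1.74 (1.30 to 2.38).

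Of 12 TCA cycle genes, 2 were called higher at each M9C dose (backgrounds 17.9%, 17.8% and 18.0%), a share near the background, and 1 at each L6F dose (15.7% and 15.0%), a share below it. The sum was 10.5 UMIs per 10000 in rested cells, 14.2, 14.1 and 14.0 at 0.2, 2 and 20 pmol M9C, and 14.3 and 14.7 at 20 and 80 pmol L6F, a ratio of 1.34 (1.27 to 1.41) at 20 pmol M9C. Fh1, fumarate hydratase, stood at 19.4 CPM in rested cells, 47.5, 51.0 and 47.7 CPM at 0.2, 2 and 20 pmol M9C, and 49.1 and 51.5 CPM at 20 and 80 pmol L6F, with a log2 ratio of 1.30 (0.76 to 1.89). Idh3a, the catalytic subunit of the NAD-dependent isocitrate dehydrogenase, stood at 44.1 CPM in rested cells, 93.6, 93.7 and 96.9 CPM at 0.2, 2 and 20 pmol M9C, and 86.7 and 86.2 CPM at 20 and 80 pmol L6F, with a log2 ratio of 1.14 (0.78 to 1.51). Its partner subunits did not stand as high: Idh3b had a log2 ratio of 0.26 (0.00 to 0.54) and Idh3g of 0.06 (-0.15 to 0.28) at 20 pmol M9C. Mdh2, the mitochondrial malate dehydrogenase, stood at 229 CPM in rested cells, 373, 372 and 376 CPM at 0.2, 2 and 20 pmol M9C, and 357 and 372 CPM at 20 and 80 pmol L6F, with a log2 ratio of 0.72 (0.56 to 0.88). Mdh1, its cytosolic counterpart, stood at 132 CPM in rested cells, 153, 154 and 147 CPM at 0.2, 2 and 20 pmol M9C, and 164 and 181 CPM at 20 and 80 pmol L6F, with a log2 ratio of 0.16 (-0.06 to 0.38). Suclg1, a succinyl-CoA ligase subunit, stood at 142 CPM in rested cells, 189.9, 178 and 182 CPM at 0.2, 2 and 20 pmol M9C, and 190.3 and 192 CPM at 20 and 80 pmol L6F, with a log2 ratio of 0.35 (0.15 to 0.56). The mitochondrial malate dehydrogenase gene thus had the larger ratio of the pair. Cs, citrate synthase, stood at 73.5 to 80.2 CPM in the stimulated cultures against 48.2 CPM in rested cells, Dlst at 67.3 to 76.4 CPM in the stimulated cultures against 56.2 CPM in rested cells, and Sucla2 at 47.5 to 52.0 CPM in the stimulated cultures against 43.5 CPM in rested cells. Ogdh, the first subunit of the oxoglutarate dehydrogenase complex, stood at 70.1 to 79.2 CPM in the stimulated cultures against 70.2 CPM in rested cells.

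Dose steps of a peptide gave small ratios. Between doses, 0 of 36 measured members were at least 25% higher or 20% lower in any of 4 comparisons. The background shares called higher were 1.61% for 2 over 0.2 pmol M9C, 1.61% for 20 over 2 pmol M9C, 3.23% for 20 over 0.2 pmol M9C and 0.978% for 80 over 20 pmol L6F, and those called lower were 1.84%, 0.691%, 1.95% and 1.01%. By the interval alone, 5 members lay above equality for 20 over 0.2 pmol M9C (background 8.49%) and 2 lay below (8.19%). The 5 were Hk1, at a log2 ratio of 0.19 (0.05 to 0.32), and Gapdh, Tpi1, Pkm and Ldha, at 0.06 to 0.09. The 2 were Rpia, at -0.23 (-0.43 to -0.02), and Taldo1, at -0.09 (-0.18 to -0.00). For 80 over 20 pmol L6F, 6 members lay below equality (background 8.02%), the farthest being Hk2 at -0.20 (-0.38 to -0.02), and Mdh1 and Mdh2 lay above (background 6.84%). The glycolysis sum at 20 over 0.2 pmol M9C had a ratio of 1.03 (1.02 to 1.04). An interval this narrow reflects the number of UMIs, and the spread between cultures of 1 dose is not known.

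M9C and L6F were both given at 20 pmol, which allows 1 matched comparison of the peptides. Of 36 measured members, 1 was at least 25% higher with M9C (background 6.89%) and 1 at least 20% lower (background 7.38%). The first was Hk2, with 51.5 CPM with M9C and 37.8 CPM with L6F, a log2 ratio of 0.44 (0.28 to 0.60). In cells of 1000 to 3000 UMIs Hk2 was not called, at 0.83 (-0.25 to 1.90). The second was Idh2, the mitochondrial NADP-dependent isocitrate dehydrogenase, with 45.4 CPM with M9C and 57.4 CPM with L6F, a log2 ratio of -0.34 (-0.49 to -0.19). Over all conditions Idh2 stood at 41.5 CPM in rested cells, 43.9, 46.9 and 45.4 CPM at 0.2, 2 and 20 pmol M9C, and 57.4 and 58.4 CPM at 20 and 80 pmol L6F. All 3 M9C cultures lay below both L6F cultures for Idh2. Idh2 was not called in 4 alternatives: its log2 ratio was 0.011 with each cell thinned to 1000 UMIs, -0.25 in UMIs per cell, -0.31 with HTODemux and at least 500 genes per cell, and -1.08 (-2.52 to 0.14) in cells of 1000 to 3000 UMIs. By the interval alone, 10 members lay above equality (background 21.0%) and 10 below (background 17.6%). The glycolysis sum had a ratio of 1.03 (1.02 to 1.04) and the lactate dehydrogenase sum 1.06 (1.04 to 1.08), M9C over L6F. The ratio was 0.932 (0.905 to 0.961) for the oxidative and 0.919 (0.895 to 0.945) for the non-oxidative pentose phosphate sum, and 0.985 (0.966 to 1.00) for the TCA sum.

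**Figure D4:**
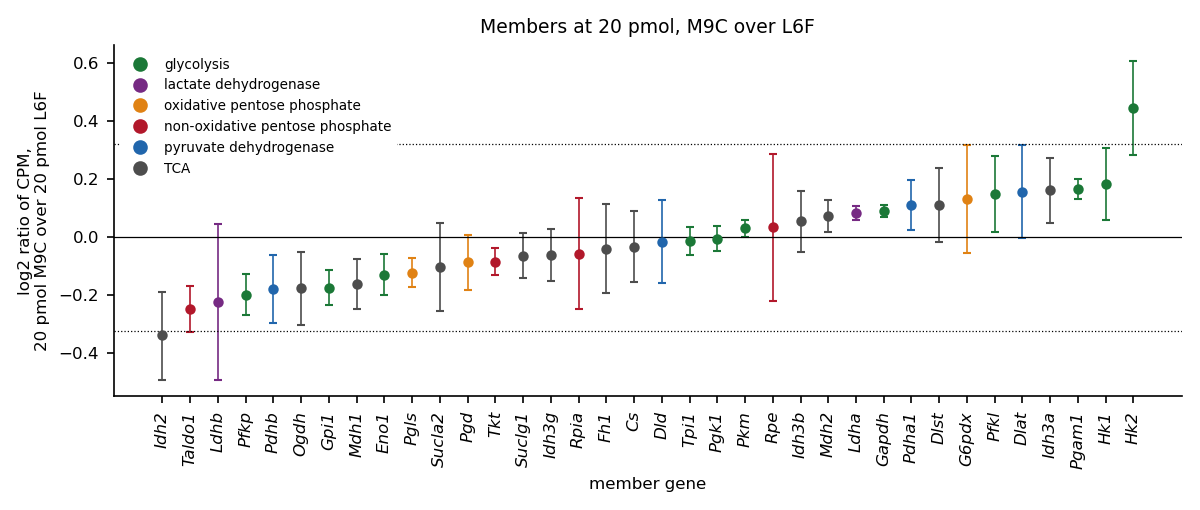
The log2 ratio of CPM at 20 pmol, M9C over L6F, is plotted for the 36 measured members with exact 95% counting intervals, coloured by pathway arm and ordered by value. Dotted lines mark 25% higher and 20% lower. Hk2, at 0.44, and Idh2, at -0.34, lie past them, and the other 34 lie between.

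Set over all doses, the 3 M9C cultures all lay above both L6F cultures for 11 of 36 members (30.6%, against 30.9% of 7175 genes) and below both for 14 (38.9%, against 26.3%). Those above were Hk2, Pfkl, Gapdh, Pgam1, Ldha, G6pdx, Pdha1, Dlat, Idh3a, Dlst and Mdh2. Those below were Gpi1, Pfkp, Eno1, Ldhb, Pgls, Pgd, Tkt, Taldo1, Pdhb, Idh3g, Idh2, Suclg1, Sucla2 and Mdh1. The doses differ between peptides, so this is a side-by-side order and not a matched comparison. The share above was near that of all genes, and the order takes no account of the size of a gap. Isoform partners stood on opposite sides with Ldha and Ldhb, Pfkl and Pfkp, and Mdh2 and Mdh1, as did the E1 subunit genes Pdha1 and Pdhb. The gap could be small: Mdh2 stood at 372.5 CPM at 2 pmol M9C and 372.3 CPM at 80 pmol L6F. Of these isoform partners and E1 subunit genes, only Pfkp had counting intervals that did not overlap between the nearest cultures of the 2 peptides. Elsewhere in the lists the intervals also lay apart for Hk2 and Pgam1, which were above, and for Gpi1, Pgls, Tkt, Taldo1 and Idh2, which were below. The share of all genes with intervals apart was not counted. The lists of members were read off after the values were seen.

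Per cell, most genes had more UMIs in stimulated cells, the members included. A stimulated cell held 72.7 to 83.6 member UMIs on average by condition and a rested cell 5.28. On that scale 36 of 36 members were at least 2-fold higher in each stimulated culture. Of all measured genes, 93.6%, 93.5% and 93.2% were at 0.2, 2 and 20 pmol M9C and 94.3% and 94.6% at 20 and 80 pmol L6F, shares near that of the members. The median log2 ratio in UMIs per cell at 20 pmol M9C over rested cells was 3.64 for the members and 2.96 for all measured genes, and at 80 pmol L6F it was 3.41 and 2.78. Taldo1, lowest of the members in CPM, stood 2.05 to 2.21 higher on the log2 scale in UMIs per cell.

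With every cell thinned to 1000 UMIs, so that depth was equal, the shift in member UMIs was seen across the cells of a culture. The median stimulated cell held 12 member UMIs at 20 pmol M9C and 11 in the other 4 stimulated cultures, and the median rested cell held 5. Of stimulated cells, 61.5%, 61.0% and 61.8% at 0.2, 2 and 20 pmol M9C and 60.1% and 56.5% at 20 and 80 pmol L6F lay above the 95th percentile of rested cells, which was 10 UMIs, and of rested cells 4.07% did. This uses the 467 rested cells and 1586 to 2467 cells per stimulated culture that reached 1000 UMIs. For glycolysis genes, 47.1 to 52.8% of stimulated cells lay above the rested 95th percentile, against 1.93% of rested cells, while for the oxidative pentose phosphate genes 1.64 to 2.46% did, against 2.36% of rested cells.

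**Figure D5:**
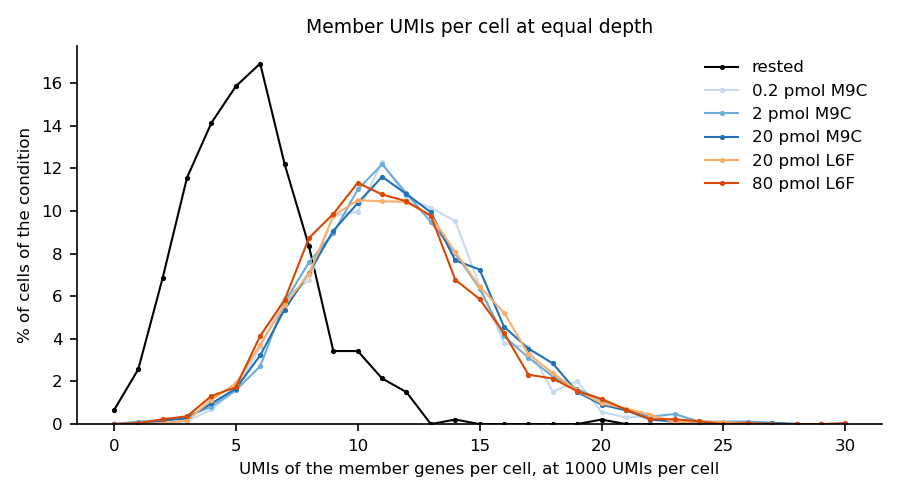
The share of cells of each condition (y axis, in percent) is plotted against the member UMIs in a cell thinned to 1000 UMIs (x axis). The stimulated curves lie together, with medians of 11 or 12 UMIs, and the rested curve lies lower, with a median of 5, with overlap between about 5 and 10 UMIs.

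Within stimulated cultures, glycolysis genes took a larger share in cells of more UMIs: 60.6 to 63.7 per 10000 in cells of 2000 to 4000 UMIs, 66.6 to 70.1 in those of 4000 to 8000 and 69.6 to 72.5 in those of 8000 or more. In rested cells the share was 23.9 at 500 to 1000 UMIs and 25.2 at 1000 to 2000 UMIs, below every stimulated class. TCA genes took 13.8 to 14.9 per 10000 in each of those stimulated classes, with no order by UMIs. Among stimulated cells thinned to 3000 UMIs, the members' variance over mean had a median of 1.03 to 1.04 by condition, against 1.02 over all genes measured there, which is close to the 1 that counting alone gives. Gapdh had the members' highest value in every stimulated culture, 1.39, 1.34 and 1.38 at 0.2, 2 and 20 pmol M9C and 1.24 and 1.19 at 20 and 80 pmol L6F, above the 95th percentile of all genes (1.13 to 1.14). It also had the members' highest mean there, 7.48 to 8.05 UMIs per cell by condition. Gapdh was not the only member past the percentile: Pkm was too, at 1.17 at 20 pmol M9C and at both L6F doses, and some others were in part of the cultures. Variance over mean can grow with the mean, and the percentile was not matched for it.

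All cultures shared 1 lane, so RNA set free by stimulated cells can appear in rested barcodes. Ccl4, a chemokine of stimulated cells, stood in rested cells at 3.20% of its level at 20 pmol M9C and 18.2% of that at 80 pmol L6F. Tnfrsf4 and Xcl1, also genes of stimulated cells, stood there at 4.07% and 4.00% of their levels at 20 pmol M9C. Against 80 pmol L6F their shares were 28.7% and 42.2%. Against 20 pmol M9C, the lowest share among the members was that of Hk2, at 19.5%, followed by Tpi1 at 21.7%, Pgam1 at 22.2% and Ldha at 27.5%. The part of free RNA in the rested levels was not tested. The median mitochondrial share of UMIs, a sign of cell quality, was 1.58 to 1.83% in stimulated cells and 2.35% in rested cells.

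Other genes of the same pathways, from lists drawn up with earlier results of these data known, stood as follows at 20 pmol M9C over rested cells. Of 24 other glycolytic isoform and regulator IDs, 4 were measured and 3 were at least 2-fold higher (background 18.0%). These were Eno3, Aldoa (aldolase A, the step that splits the sugar), at 463 CPM in rested cells, 1039, 1049 and 1063 CPM at 0.2, 2 and 20 pmol M9C, and 974 and 961 CPM at 20 and 80 pmol L6F, and Tigar, which dampens glycolysis, at a log2 ratio of 1.38 (0.47 to 2.46). Bpgm, which makes 2,3-bisphosphoglycerate, was the fourth, at 19.4 CPM in rested cells, 21.6, 28.1 and 33.5 CPM at 0.2, 2 and 20 pmol M9C, and 19.2 and 17.3 CPM at 20 and 80 pmol L6F. It was thus higher with M9C than with L6F at 20 pmol, by 0.80 (0.59 to 1.02) on the log2 scale, and in order of the M9C dose.

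Of 10 carriers of glucose, lactate and pyruvate, 5 were measured and 2 called higher (background 18.0%). The lactate carrier Slc16a1 stood at 24.1 CPM in rested cells, 80.3, 84.0 and 81.9 CPM at 0.2, 2 and 20 pmol M9C, and 66.2 and 61.1 CPM at 20 and 80 pmol L6F. Bsg, its chaperone at the membrane, stood at 189 CPM in rested cells, 473, 522 and 539.7 CPM at 0.2, 2 and 20 pmol M9C, and 406 and 406 CPM at 20 and 80 pmol L6F. The mitochondrial pyruvate carrier genes had log2 ratios of 0.16 (-0.08 to 0.40) for Mpc1 and 0.22 (-0.01 to 0.45) for Mpc2, near equality. The glucose carrier Slc2a1, named after its values were seen, stood at 12.0 CPM in rested cells, 20.5, 21.5 and 23.9 CPM at 0.2, 2 and 20 pmol M9C, and 18.5 and 16.1 CPM at 20 and 80 pmol L6F, just short of 2-fold at 20 pmol M9C. Of 9 other pentose phosphate genes 3 were measured, and Prps1, which makes the nucleotide precursor PRPP, was the 1 called higher (background 18.0%), at a log2 ratio of 1.03 (0.66 to 1.41). Its relative Prps2 had -0.04 (-0.44 to 0.38) and Pgm1, phosphoglucomutase, 0.69 (0.16 to 1.26).

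Of 11 regulators and partners of pyruvate dehydrogenase, 5 were measured, with 1 called higher and 1 lower at 20 pmol M9C (backgrounds 18.0% and 16.8%). The kinases that switch the complex off stood in opposite directions. Pdk1 stood at 60.2 CPM in rested cells, 22.6, 23.3 and 24.1 CPM at 0.2, 2 and 20 pmol M9C, and 32.2 and 30.1 CPM at 20 and 80 pmol L6F, with a log2 ratio of -1.32 (-1.66 to -0.96). Pdk3 stood at 20.7 CPM in rested cells, 48.7, 50.4 and 52.8 CPM at 0.2, 2 and 20 pmol M9C, and 41.3 and 38.5 CPM at 20 and 80 pmol L6F, with a log2 ratio of 1.35 (0.83 to 1.92). Pdp2, a phosphatase that switches it on, had 0.82 (0.01 to 1.75) and Pdhx, a structural subunit, 0.47 (-0.22 to 1.26). Of 24 other TCA and anaplerotic genes, 19 were measured, 6 were called higher and 0 lower (backgrounds 18.0% and 16.8%). Both aspartate aminotransferase genes were among the 6. Got2 (mitochondrial) stood at 242 to 256 CPM in the stimulated cultures against 73.6 CPM in rested cells. Got1 (cytosolic) stood at 103 to 116 CPM in the stimulated cultures against 39.5 CPM in rested cells. The carrier gene Slc25a13 was also among them, at 15.5 to 18.7 CPM in the stimulated cultures against 3.34 CPM in rested cells. That rested level rests on few UMIs. At the other end, Slc25a11 had a log2 ratio of -0.41 (-0.70 to -0.12) and Glud1, glutamate dehydrogenase, -0.25 (-0.42 to -0.08).

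All 7 upstream regulators on the list were measured against rested cells, with 1 called higher and 1 lower at 20 pmol M9C (backgrounds 18.0% and 16.8%), shares near the background. Myc stood at 83.6 CPM in rested cells, 101, 93.5 and 95.6 CPM at 0.2, 2 and 20 pmol M9C, and 89.5 and 80.3 CPM at 20 and 80 pmol L6F, with a log2 ratio of 0.19 (-0.07 to 0.47) that held equality. Hif1a stood at 62.2 CPM in rested cells, 91.6, 103 and 119.5 CPM at 0.2, 2 and 20 pmol M9C, and 92.9 and 90.1 CPM at 20 and 80 pmol L6F, with a log2 ratio of 0.94 (0.64 to 1.26), under 2-fold. Egln3, a hydroxylase that marks Hif1a for decay, stood at 8.03 CPM in rested cells, 27.0, 22.8 and 16.6 CPM at 0.2, 2 and 20 pmol M9C, and 14.2 and 10.4 CPM at 20 and 80 pmol L6F, called higher at a log2 ratio of 1.04 (0.21 to 2.02). Txnip, which restrains glucose uptake, stood at 186 CPM in rested cells, 12.4, 12.7 and 11.3 CPM at 0.2, 2 and 20 pmol M9C, and 18.7 and 20.2 CPM at 20 and 80 pmol L6F, with a log2 ratio of -4.04 (-4.34 to -3.75). Vhl had 0.95 (0.04 to 2.04) and Arnt, the partner of Hif1a, -0.19 (-0.97 to 0.70).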

How the data were processed

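The deposited matrix covered 13439 barcodes of 1 lane and held UMI counts of genes and of hashtags. Per the submitters' processing notes, the authors used bcl2fastq and Cell Ranger 6.0.1 with GRCm38 (mm10). No barcode had fewer than 500.0 UMIs. How empty droplets were called and which annotation was used is not given in the sources used here. A deposited text ties each hashtag to its condition.

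A cell took the condition of its top hashtag at 20 or more hashtag counts and 80% or more of all its hashtag counts (11671 cells), and cells of at most 10% mitochondrial UMIs were used (11477). This leaves out cells of mixed hashtags, while doublets within a condition stay, and no doublet caller was run. Counts were summed per condition with Python 3.11.15, numpy 2.4.6 and pandas 2.3.3. Ratios and shares have exact Clopper-Pearson and CPM exact Poisson 95% intervals (scipy 1.17.1). The 10 comparisons used thresholds of 2-fold against rested cells and of 25% higher or 20% lower otherwise. The calls were checked on simulated counts only for 20 pmol M9C over rested cells and over 20 pmol L6F. Those counts held planted changes larger than the thresholds and counting error alone, so spread between cultures was not covered. Seurat 5.3.0 in R 4.3.3 gave an alternative call of condition. Positions are from GENCODE vM21. Values in all 6 conditions are given for isoform groups, the 3 highest members per arm and the 2 per arm with the largest absolute log2 ratio of 20 pmol M9C to rested cells. Of each other list the 2 highest and 2 lowest ratios are named. Members and lists were chosen with earlier results of these data known.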

Additional observations from a re-analysis of the deposited data

How the results depend on the processing

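Other scalings, filters on low values and cell filters were tried, each changing 1 choice, except that Seurat's HTODemux was run together with a minimum of 500 genes per cell. Apart from UMIs per cell, the counts of members at least 2-fold higher than rested cells ranged over the alternatives from 10 to 16 at 0.2 and 2 pmol M9C, 10 to 14 at 20 pmol M9C and 9 to 13 at either L6F dose. The share of all genes called is not given for these alternatives, so their counts cannot be set against a background. In UMIs per cell all 5 comparisons with rested cells gave 36 higher members, and 0 members were lower for M9C over L6F at 20 pmol. With Seurat's HTODemux and at least 500 genes per cell, 1 member (Taldo1) was at least 2-fold lower at 2 and at 20 pmol M9C than in rested cells, at -1.08 on the log2 scale in both, against -0.78 and -0.79 with the minimum of 500 genes alone, and 0 were lower for M9C over L6F at 20 pmol. With cells thinned to 1000 UMIs, members at least 20% lower numbered 1 for 2 over 0.2 pmol M9C, 1 for 20 over 2 pmol M9C and 2 for 20 over 0.2 pmol M9C, and those at least 25% higher 1 for 80 over 20 pmol L6F and 2 for M9C over L6F. Thinning also turned Idh2 in M9C over L6F to 0.011. In cells of 1000 to 3000 UMIs, 1 member was higher and 1 lower for 2 over 0.2 pmol M9C, 2 were lower for 80 over 20 pmol L6F, and 0 were higher (Hk2 lost its call) and 2 lower for M9C over L6F at 20 pmol. In the same cells Taldo1 stood at -0.38 (-0.87 to 0.08) at 2 pmol M9C and -0.53 (-1.03 to -0.06) at 20 pmol M9C over rested cells. The cause of these differences was not tested. The ratio of Hk2, M9C over L6F, lay between 0.41 and 0.83 on the log2 scale in all alternatives with a value.

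At 20 pmol M9C over rested cells the median of all measured genes was 0.09 on the log2 scale, 2.96 in UMIs per cell, 0.18 with median-of-ratios size factors, -0.14 with a total without ribosomal protein and mitochondrial genes, -0.55 with no minimum CPM and 0.37 at 50 CPM. Levels per 10000 UMIs have no value in UMIs per cell or under size factors. No paired analysis was possible because each condition was 1 culture with no replicate. Rested cells are the shallowest group, and 52.3% of them held fewer than 500 genes, so ratios of members with few rested UMIs, such as Hk2, Rpe and Pfkm, are the least precise.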
